A study of Mus musculus with 62 samples.

Results

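The genes described here encode the translation initiation factors (eIF1 to eIF6) and the translation elongation factors (eEF1 and eEF2) of mouse skeletal muscle, together with the eIF4E-binding proteins, the kinases of eIF2 alpha and the enzymes that modify eEF2. They were chosen by symbol alone, as the entries of the expression table whose symbol starts with Eif1 to Eif6 or with Eef1 or Eef2 and carries no pseudogene suffix. The rule found 65 of the 47643 symbols in the table, and 61 of them reached at least 1 TPM (a level corrected for transcript length and library size) in at least 5 libraries and were tested among 12364 genes. The 4 that did not were Eif5a2, the rarer eIF5A paralogue, Eif4e1b, an oocyte cap-binding factor, Eif2s3y, the Y-linked eIF2 gamma copy, and Eif2c5, which meets the rule only by its letters. Eif5a2 ranged from 0.28 to 1.72 TPM over the 62 libraries, and the other 3 did not exceed 0.15 TPM in any library.

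Translation of most cellular messages starts when eIF4E binds the cap, eIF4G and the helicase eIF4A join it, and a small ribosomal subunit carrying eIF3 and the eIF2 ternary complex scans to the start codon. The 4E-binding proteins hold eIF4E away from eIF4G unless mTORC1 phosphorylates them, and kinases acting on eIF2 alpha block the exchange factor eIF2B. During elongation eEF1A delivers aminoacyl-tRNA and eEF2 moves the ribosome along the message. Adult muscle fibres and neurons are known for using the eEF1A paralogue encoded by Eef1a2, whereas most other cells use the one encoded by Eef1a1. Muscle wasting in cachexia is known to involve reduced protein synthesis as well as protein breakdown, and these data measure transcripts only.

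The libraries came from gastrocnemius, a calf muscle, of female mice of 2 months, and each was made from total RNA with the TruSeq stranded mRNA kit. Mice received cachectic melanoma cells (CAC), melanoma cells that do not cause cachexia (NCAC), or a mock injection without cells (Con), and muscle was taken at 2, 4, 6 or 8 weeks. Each of the 12 groups held 5 libraries, except CAC at 8 weeks, which held 7. The sources used here conflict on strain: the study design names NCI Ath/nude mice, which lack T cells, and the labels of every library name C57BL/6J. The labels name no melanoma line or clone, and do not say whether a library pooled muscles.

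The 250 bases before the RefSeq start of 3 members are shown first, because the results turn on the Eef1a1 and Eef1a2 pair and because Eef2 had the highest TPM of any member in CAC at 4, 6 and 8 weeks. All are from GRCm38.p6. Eef1a1 lies at chr9:78481725-78481974 on the minus strand, Eef1a2 at chr2:181157016-181157265 on the minus strand and Eef2 at chr10:81176381-81176630 on the plus strand. Capitals mark an E-box (CACGTG) and a TATA box (TATAAA).
Eef1a1: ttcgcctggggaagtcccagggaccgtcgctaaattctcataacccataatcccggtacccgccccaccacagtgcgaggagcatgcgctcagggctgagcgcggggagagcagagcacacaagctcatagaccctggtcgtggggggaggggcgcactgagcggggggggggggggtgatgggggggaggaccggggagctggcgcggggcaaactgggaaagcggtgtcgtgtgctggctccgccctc
Eef1a2: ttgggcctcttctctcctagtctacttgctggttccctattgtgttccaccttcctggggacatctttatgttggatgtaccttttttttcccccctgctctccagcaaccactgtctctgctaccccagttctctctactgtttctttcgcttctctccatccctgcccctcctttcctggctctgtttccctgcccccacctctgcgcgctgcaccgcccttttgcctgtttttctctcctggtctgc
Eef2: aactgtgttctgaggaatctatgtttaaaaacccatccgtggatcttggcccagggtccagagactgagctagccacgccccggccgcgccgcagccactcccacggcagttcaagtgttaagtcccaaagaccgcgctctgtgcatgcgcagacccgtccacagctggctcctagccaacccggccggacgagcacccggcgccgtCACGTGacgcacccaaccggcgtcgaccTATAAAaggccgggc

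The paralogues differed in base composition over this window, with 68% G and C before Eef1a1 and 54% before Eef1a2. The Eef2 window held 62.8% G and C, its E-box ended 38 bases before the start and its TATA box ended 10 bases before it. Of the 65 members, 51 had an entry in the promoter table. The 14 without one, among them Eif4ebp1, Eif1a, Eif4ebp3 and Eif3j2, were not searched for any of the letters below. The palindrome CACGTG was present in 9 of these 51 windows (17.6%), those of Eef2, Eef2k, Eif1b, Eif3f, Eif3k, Eif4a1, Eif4g1, Eif4h and Eif5a2, and in 6.05% of the 27025 windows of all genes. On either strand, the letters TTCNNNGAA were in 9.8% of member windows and 7.18% of all, TATAAA in 9.8% and 13%, and TGTTTAC in 1.96% and 3.09%. Neither TGACGTCA, which 1.62% of all windows held, nor TGATGCAA, which 0.818% held, was found in a member window. These are matches of letters, not measured binding.

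The libraries differed in ways that bear on every value below. The median over all 12364 genes of the CAC minus Con difference in mean log2(TPM + 1) was itself above 0. It was 0.088, 0.17, 0.28 and 0.36 at 2, 4, 6 and 8 weeks. Transcripts of mitochondrial DNA took 24.2% ± 3.53 (SD, n = 7) of all TPM in CAC and 33.5% ± 3.02 (SD, n = 5) in Con at 8 weeks. Each comparison is therefore given on deposited TPM and after every library was rescaled by its median ratio to a common reference. Rescaling took 0.073, 0.16, 0.26 and 0.32 off the median difference over all genes at the same weeks. The shift of single genes varied, and the median over the 61 tested members went from 0.48 to 0.093 at 8 weeks. CAC replicate 2 at 4 weeks stood above the other 4 libraries of its group for several members, and CAC replicate 3 at 8 weeks lay near the control values for several. The summed level of 8 macrophage markers was 160 to 560 TPM in CAC and 47.0 to 177 TPM in Con at 8 weeks, with all 8 markers higher by limma (Benjamini-Hochberg), and its part in the results was not tested. Summed levels of other cell markers in CAC and Con at 8 weeks were 4.32 to 24.3 and 2.08 to 7.30 TPM for neutrophils (2 of 3 markers higher), 92.5 to 153 and 55.2 to 84.0 for endothelium (2 of 3 higher, 1 lower) and 41.1 to 145 and 31.6 to 50.1 for smooth muscle (2 of 2 higher). They were 407 to 990 and 278 to 424 TPM for fibro-adipogenic progenitors (2 of 4 higher) and 36.5 to 108 and 29.8 to 69.4 for Schwann cells (1 of 2 higher), while no satellite cell, adipocyte or red cell marker was called by limma. All 6 muscle fibre markers were present in every group, and their sum ran from 58384 to 96345 TPM over the 62 libraries. At 8 weeks the sum was 60413 to 86525 TPM in CAC and 70376 to 86385 in Con (2 of 6 markers higher, 1 lower). No single melanocyte marker exceeded 1.15 TPM in any library. In whole muscle, a change in the number of fibres and a change in RNA per fibre cannot be told apart.

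At 2 weeks no member was called between CAC and Con by limma (adjusted p, Benjamini-Hochberg over all genes tested), with 15 of 61 at an unadjusted p under 0.05. The background was 0.267% of genes called higher and 0.0162% lower. After rescaling, 1 member was higher, Eif1a, against 0.275% of genes higher and 0.0809% lower. Without CAC replicate 3, CAC replicate 4 or any 1 of the 5 Con libraries, 0 members were called after rescaling by limma. At 4 weeks 28 of 61 members rose and 0 fell, against 23% of genes called higher and 2.38% lower. After rescaling 8 rose and 0 fell, against 7.76% higher and 7.68% lower. Without CAC replicate 2 at 4 weeks, 7 members were called on TPM and 1 after rescaling, Eif1a. The rescaled count of higher members was 3 without CAC replicate 4, Con replicate 1 or Con replicate 4, 4 without Con replicate 2 and 5 without Con replicate 5.

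At 6 weeks 55 of 61 members rose and 0 fell on TPM, where 51.8% of all genes were called higher and 5.41% lower. Rescaling left 19 higher and 0 lower, against 15.7% and 16.6% of all genes. The rescaled count was 9 higher and 1 lower without CAC replicate 1, and 12 higher and 2 lower without Con replicate 3. At 8 weeks 55 rose and 0 fell, against 65.3% and 5.55%. Rescaled, 22 members rose and 9 fell at 8 weeks, where 24.9% of all genes were called higher and 21% lower. The median member difference was 0.13, 0.24, 0.44 and 0.48 at the 4 successive weeks on TPM, and 0.060, 0.051, 0.15 and 0.093 after rescaling. The plot of changes by role shows the widening between 2 and 6 weeks on TPM and the separate position of Eif4ebp1. Over the same weeks the median of all genes also rose, from 0.088 to 0.28.

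**Figure D1:**
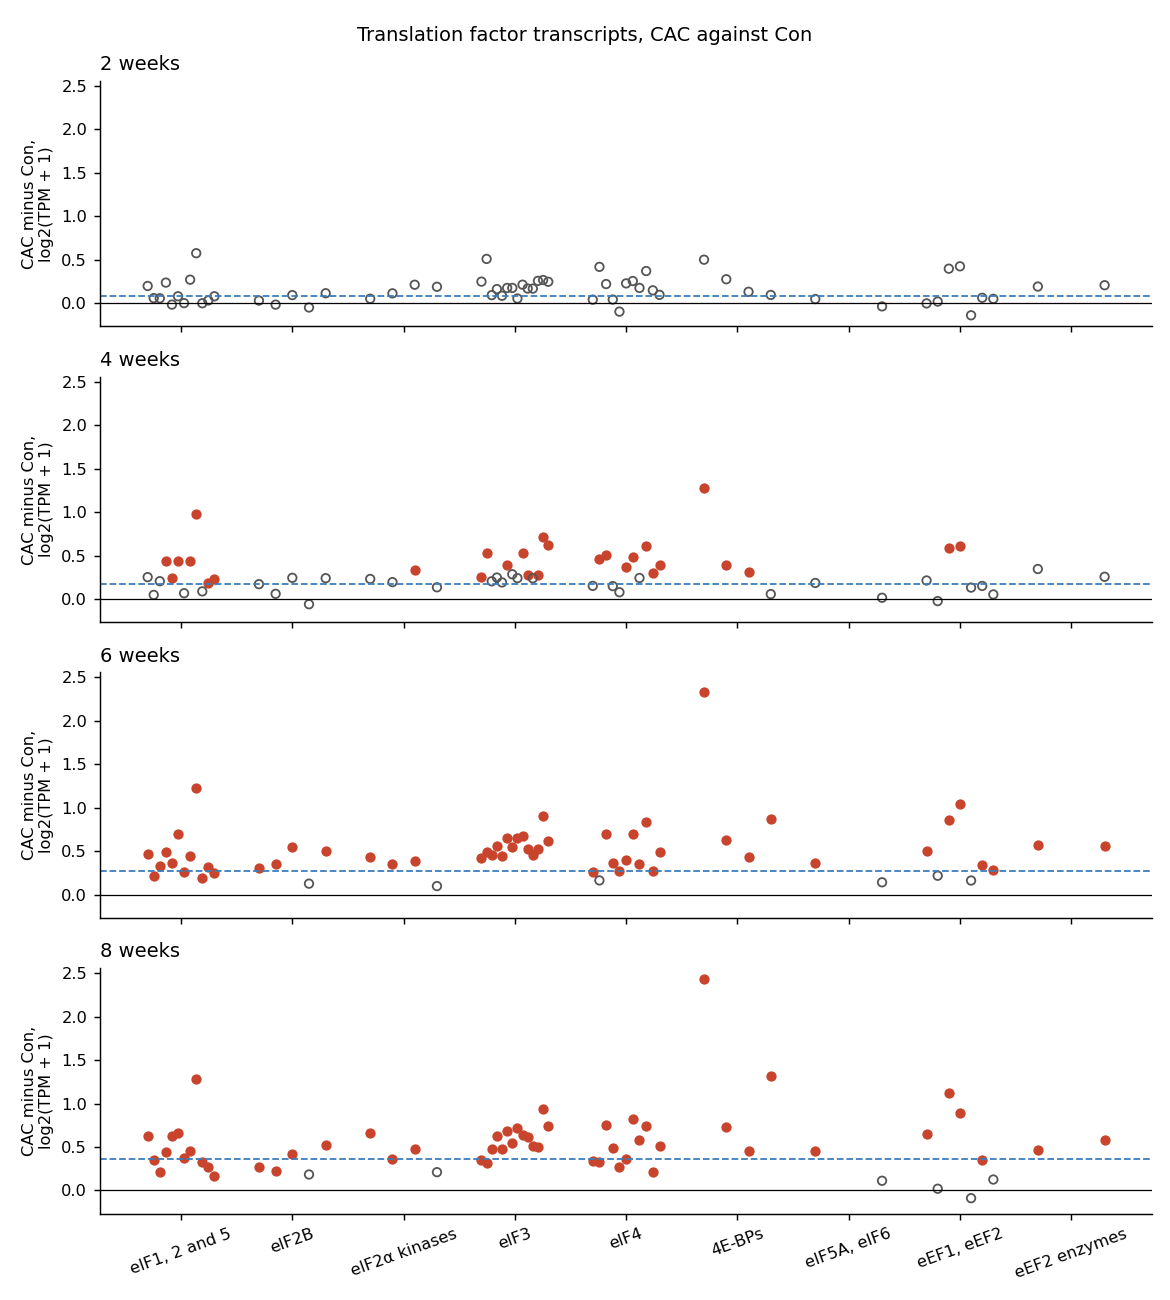
Difference between CAC and Con in mean log2(TPM + 1) for each of the 61 tested members (points), by role and week; filled points passed an adjusted p of 0.05 (limma), open points did not, and the dashed line is the median of all tested genes. No point is filled at 2 weeks, 28 are at 4 weeks and 55 at 6 and at 8 weeks, with Eif4ebp1 the highest from 4 weeks on.

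The inhibitors of eIF4E held the highest median difference of any role at 8 weeks, 1.03 on TPM. Eif4ebp1 encodes 4E-BP1, the mTORC1-regulated repressor of eIF4E, and lies on chromosome 8 at 27260329 to 27276674 (GRCm38, plus strand). Its TPM in the 5 CAC libraries was 80.0, 105, 148, 146 and 82.4 at 2 weeks, 141, 613, 140, 258 and 129 at 4 weeks, and 1093, 570, 258, 368 and 258 at 6 weeks. At 8 weeks the 7 CAC libraries ran from 94.0 through a median of 437 to 1309. Con libraries lay between 63.2 and 102 TPM over all 4 weeks, so every CAC library at 4 and 6 weeks was above them, and at 8 weeks only CAC replicate 3 fell inside their range.

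The rise in Eif4ebp1 over Con was 1.28 ± 0.37 (SE) on the log2(TPM + 1) scale at 4 weeks (adjusted p = 0.0107), 2.34 ± 0.37 at 6 weeks (adjusted p = 3.7e-06) and 2.43 ± 0.34 at 8 weeks (adjusted p = 9.18e-08), all by limma. Rescaled, these were 1.08, 2.02 and 2.03, each still called. Without CAC replicate 2 the 4-week difference was 0.90 with a limma adjusted p of 0.121, and 0.76 rescaled with an adjusted p of 0.185; the rescaled call was also lost without CAC replicate 4. The spread among CAC libraries was wide, at 537 ± 386 TPM (SD, n = 7) against 78.3 ± 12.8 (SD, n = 5) in Con at 8 weeks.

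Eif4ebp2, the paralogue that is abundant in brain, had 119 to 234 TPM in CAC at 8 weeks and 83.9 to 93.8 in Con, with no overlap, and rose by 0.74 (0.34 rescaled; limma adjusted p = 4.89e-07 and 0.0034). Eif4ebp3 was near the limit of measurement: its 7 CAC libraries at 8 weeks ran from 0.431 through 1.81 to 5.52 TPM, and its Con libraries from 0.0653 to 0.532. It rose by 1.31 at 8 weeks (limma adjusted p = 2.16e-05), and 65.5% of its 50-base windows are also in another annotated transcript. Eif4enif1, which carries eIF4E into the nucleus, rose by 0.46 on TPM at 8 weeks and was at 0.093 after rescaling, where it was not called. All 4 genes of this role rose at 8 weeks on TPM and 3 of 4 after rescaling, beside 65.3% and 24.9% of all genes. Eif4ebp3 reached at least 1 TPM in 15 of the 62 libraries, and in no Con library at 8 weeks. It thus passed the filter partly through the CAC libraries. Its calls here and below, and its part in these counts and in the role median of 1.03, are therefore not independent of the filter.

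Eif4e, the cap-binding protein that these genes act on, was at 33.7, 46.4, 45.6, 41.6 and 35.5 TPM in CAC at 2 weeks against 27.8 to 31.9 in Con, and at 42.3, 34.6, 46.6, 37.5 and 41.0 at 4 weeks against 28.0 to 31.5. The groups did not overlap at these early times, and the difference passed the test at 4 weeks on TPM (0.46, limma adjusted p = 0.0119) but not at 2 weeks (0.42, adjusted p = 0.153). At 6 weeks the difference was 0.17 (adjusted p = 0.292). After rescaling Eif4e was not called by limma at 2, 4 or 6 weeks. At 8 weeks the CAC libraries spread from 23.4 through 42.7 to 63.6 TPM, on both sides of Con at 28.0 to 34.2, and the difference was 0.32 on TPM (adjusted p = 0.0188) and -0.060 rescaled (adjusted p = 0.746). That call on TPM was lost without CAC replicate 3 (0.23, limma adjusted p = 0.0777), CAC replicate 4 (0.21, adjusted p = 0.10) or Con replicate 3 (0.28, adjusted p = 0.0558).

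**Figure D2:**
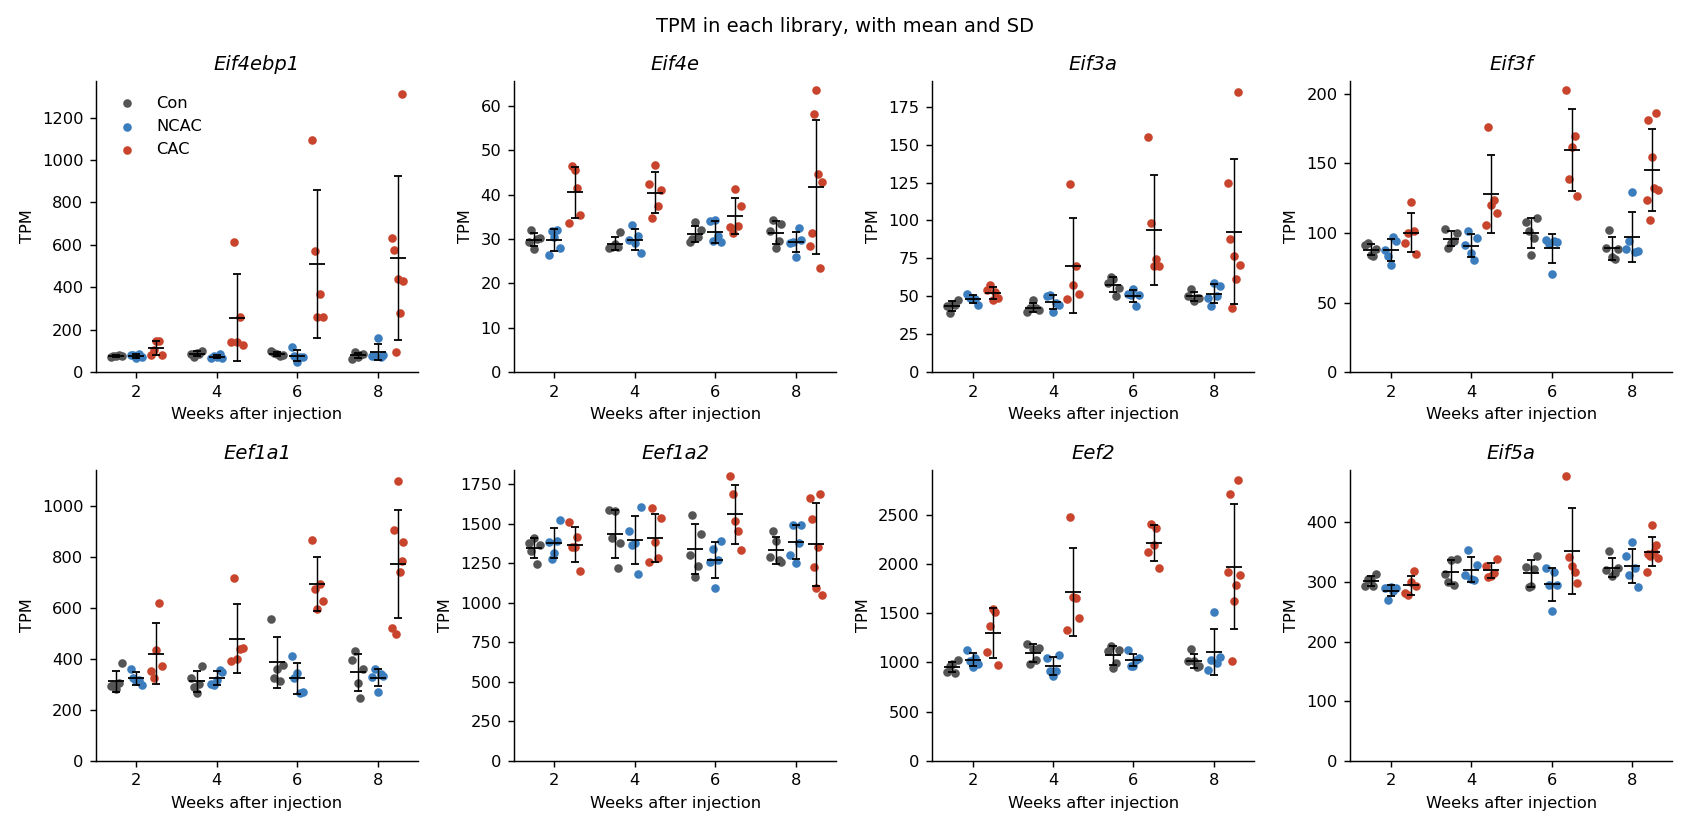
TPM of 8 members in every library (points) by week after injection, with the group mean and SD in black; linear axes start at 0. Every CAC library of Eif4ebp1, Eef1a1 and Eef2 lies above Con at 4 and 6 weeks, and all but the lowest CAC library of Eif4ebp1 and Eef2 do at 8 weeks, whereas Eef1a2 and Eif5a overlap between CAC and Con at every week.

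The ratio of Eif4ebp1 to Eif4e within a library does not depend on how that library was scaled. It ranged from 6.27 to 33.5 in CAC at 6 weeks and from 2.44 to 3.38 in Con, without overlap, a log2 difference of 2.18 (exact permutation test, two-sided, p = 0.00794, adjusted p = 0.0357 over 36 tests). That call was lost without any 1 of Con replicates 2 to 5 (exact permutation, highest adjusted p = 0.0536). At 4 weeks it was 3.01 to 17.7 in CAC and 2.51 to 3.23 in Con, which overlap (0.82, exact permutation p = 0.0714, adjusted p = 0.135), and the difference was 0.37 without CAC replicate 2. At 8 weeks it ran from 1.62 through 10.1 to 56.0 in CAC and from 1.99 to 2.79 in Con; CAC replicate 3 was below every Con library and the other 6 were above (2.11, exact permutation p = 0.0177, adjusted p = 0.0536). The log2 difference from NCAC was 1.10 at 4 weeks and 2.40 at 6 weeks (exact permutation, adjusted p = 0.0357 for each). The 4-week call was lost without any 1 of the 5 NCAC libraries (exact permutation, highest adjusted p = 0.118), and the 6-week call without NCAC replicate 3. At 8 weeks CAC overlapped NCAC, at 2.19 to 6.20, and the difference of 1.82 was not called (exact permutation p = 0.0417, adjusted p = 0.0882).

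Among the scaffold and helicase factors of eIF4F, 11 of 11 tested members rose at 8 weeks on TPM, beside 65.3% of all genes. After rescaling 4 rose and 1 fell, where 24.9% of all genes were higher and 21% lower. The 4 were Eif4a1, Eif4a3, Eif4b and Eif4g3. With 1 library left out, the call was lost in 4 of 12 refits for Eif4a3 and 5 of 12 for Eif4b, and held for Eif4a1 and Eif4g3. Eif4a1, one of the paralogous eIF4A helicases, ran from 50.5 through 95.6 to 123 TPM in CAC at 8 weeks against 41.8 to 55.5 in Con, and rose by 0.83 (0.44 rescaled, limma adjusted p = 0.000668). Eif4g3, a scaffold paralogue, was at 32.2 to 82.9 TPM in CAC and 27.5 to 30.9 in Con, with no overlap, and rose by 0.75 (0.37 rescaled, limma adjusted p = 0.0101). The main scaffold Eif4g1 was at 195 to 262 TPM in CAC and 187 to 202 in Con. It rose by 0.21 on TPM (limma adjusted p = 0.00282) and fell by 0.18 after rescaling (limma adjusted p = 0.0211), so its direction depended on the scaling, and the rescaled call was lost without CAC replicate 4 or Con replicate 4. Eif4h, which stimulates eIF4A, had every CAC library above every Con library at 8 weeks (77.9 to 113 against 56.6 to 67.0 TPM), with a rise of 0.49 on TPM and a rescaled difference of 0.099 that was not called.

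The paralogue ratio of Eif4a1 to Eif4a2 was 0.444 to 0.739 in CAC at 8 weeks and 0.385 to 0.471 in Con, which overlap (log2 difference 0.33, exact permutation p = 0.0152, adjusted p = 0.0536). Against NCAC at 6 weeks it did not overlap, at 0.439 to 0.64 in CAC and 0.336 to 0.399 in NCAC (0.47, exact permutation adjusted p = 0.0357), and that call was lost in 5 of 10 refits with 1 library left out. Reads of Eif4a1 are uncertain in part, since 28.4% of its 50-base windows are also in other annotated transcripts, mostly a processed copy.

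All 14 eIF3 members, the scaffold on the small subunit, rose at 6 and at 8 weeks on TPM, and 8 and 6 of them did after rescaling. The shares of all genes called higher at these weeks were 51.8% and 65.3% on TPM, and 15.7% and 24.9% rescaled. With 1 library left out at 6 weeks, the rescaled call was lost in 6 of 10 refits for Eif3b and 5 for Eif3c. It was lost in 4 for Eif3l, 3 for Eif3h and 1 each for Eif3f and Eif3g, and held for Eif3e and Eif3j2. At 8 weeks it was lost in 4 of 12 refits for Eif3b and 5 of 12 for Eif3e, and held for Eif3f, Eif3g, Eif3h and Eif3j2. Eif3f, known in muscle as a link between eIF3 and mTORC1, was at 106, 176, 120, 123 and 114 TPM in CAC at 4 weeks and 203, 139, 162, 170 and 126 at 6 weeks. All of these were above the Con libraries of the same week, which ran from 89.4 to 103 and from 84.1 to 111. Its rise was 0.39 at 4 weeks, 0.66 at 6 weeks and 0.69 at 8 weeks on TPM (limma adjusted p = 0.0181, 4.49e-05 and 1.76e-06), and 0.19, 0.34 and 0.29 rescaled, of which the last 2 were called; the 6-week rescaled call was lost without Con replicate 3. The 4-week difference on TPM was 0.27 without CAC replicate 2 (limma adjusted p = 0.168). Eif3h, a core subunit, did not overlap at 8 weeks (278 to 419 TPM in CAC and 214 to 246 in Con) and rose by 0.62, or 0.22 rescaled (limma adjusted p = 0.00962).

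Eif3a, the largest eIF3 subunit, spread widely among CAC libraries. Its 7 CAC libraries at 8 weeks ran from 42.2 through 76.8 to 185 TPM, and its Con libraries from 47.1 to 54.8. The rise of 0.74 on TPM (limma adjusted p = 0.000627) was 0.35 after rescaling and not called (adjusted p = 0.0785). Eif3j2 rose by 0.94, or 0.55 rescaled, yet 91.9% of its 50-base windows are also in other genes, almost all of them in Eif3j1, so these copies are uncertain; Eif3j1 rose by 0.31 on TPM and was at -0.053 rescaled.

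For the start codon and ternary complex factors, 12 of 12 tested members rose at 8 weeks on TPM, beside 65.3% of all genes. After rescaling 3 rose and 3 fell, where 24.9% of all genes were higher and 21% lower. Eif1a, an eIF1A gene on chromosome 18, has a close X-linked paralogue. Among members it had the lowest p at 8 weeks against Con. Its CAC libraries held 9.32, 8.99, 11.5, 13.9 and 9.16 TPM at 2 weeks, 11.4, 21.7, 11.2, 12.9 and 10.4 at 4 weeks, and 26.1, 19.2, 14.3, 15.3 and 15.2 at 6 weeks. Con libraries lay between 5.11 and 9.24 TPM over all weeks, and at each week every CAC library was above every Con library of that week. The difference was 0.58 at 2 weeks (limma adjusted p = 0.0902), 0.98 at 4, 1.23 at 6 and 1.28 ± 0.15 (SE) at 8 weeks (adjusted p = 2.51e-09). Rescaled, it was 0.50, 0.80, 0.94 and 0.91, called at every week (limma adjusted p = 0.0492 at 2 weeks); the 2-week call was lost in 7 of 10 refits with 1 library left out. The X-linked copy Eif1ax, at 44.9 ± 4.19 TPM (SD, n = 7) in CAC and 39.8 ± 1.59 (SD, n = 5) in Con at 8 weeks, rose by 0.17 on TPM and fell by 0.22 after rescaling. Only 2.62% of the 50-base windows of Eif1a are in any other annotated transcript.

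Eif1b, which like eIF1 guards start codon choice, rose by 0.63 (0.24 rescaled) with no overlap at 8 weeks. Eif2s2 and Eif2s3x, the beta and gamma subunits of eIF2, rose by 0.21 and 0.27 on TPM and fell by 0.17 and 0.12 after rescaling; the rescaled call of Eif2s2 was lost in 5 of 12 refits with 1 library left out.

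Of the 5 eIF2B subunit genes, 4 rose at 8 weeks on TPM (65.3% of all genes did), and after rescaling 0 rose (limma) and Eif2b2 fell by 0.20, beside 24.9% of all genes higher and 21% lower. The call of Eif2b2 was lost in 9 of 12 refits with 1 library left out. Eif2b5, the catalytic subunit, was at 44.1 to 89.8 TPM in CAC and 38.9 to 45.1 in Con, rose by 0.52 (limma adjusted p = 2.27e-05), and was at 0.13 rescaled (adjusted p = 0.188). Among the 4 eIF2 alpha kinases, Eif2ak4, the amino acid sensor GCN2, was at 2.17 to 6.25 TPM in CAC and 1.91 to 2.06 in Con, with no overlap. It rose by 0.66, or 0.36 rescaled (limma adjusted p = 0.000813). Eif2ak3, the kinase PERK of the endoplasmic reticulum, rose by 0.48, or 0.19 rescaled (limma adjusted p = 0.0267), a call lost in 5 of 12 such refits. Eif2ak2, the double-stranded RNA sensor PKR, differed by 0.21 (limma adjusted p = 0.181) and by -0.075 rescaled, and was not called.

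Of the 7 elongation factors, 4 rose at 8 weeks on TPM, and 3 rose and 3 fell after rescaling, beside 65.3% of all genes higher on TPM and 24.9% higher and 21% lower rescaled. Eef1a1 on chromosome 9 (78478449 to 78489151, minus strand, GRCm38) had CAC values of 351, 327, 437, 621 and 371 TPM at 2 weeks, 394, 719, 401, 439.5 and 445 at 4 weeks, and 869, 676, 598, 696 and 628 at 6 weeks. At 8 weeks the 7 CAC libraries ran from 498 through 784 to 1101 TPM. Con libraries held 268 to 373 TPM at 4 weeks, 312 to 558 at 6 and 247 to 430 at 8, so CAC did not overlap Con from 4 weeks on. The rise was 0.59 ± 0.17 (SE), 0.86 ± 0.17 and 1.13 ± 0.16 at 4, 6 and 8 weeks (limma adjusted p = 0.0113, 9.48e-05 and 1.03e-07), and 0.39, 0.55 and 0.73 rescaled, each called. Without CAC replicate 2 the 4-week difference was 0.44 with a limma adjusted p of 0.114. The rescaled 4-week call was lost in 6 of 10 refits with 1 library left out, with 0.30 and a limma adjusted p of 0.211 without CAC replicate 2. Reads of Eef1a1 may be shared with its processed copies, which hold 39.4% of its 50-base windows.

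Eef1a2 on chromosome 2 (181147653 to 181157014, minus strand) was at 1048 through 1354 to 1687 TPM in CAC at 8 weeks and 1257 to 1456 in Con, and CAC libraries lay both above and below Con. The difference was 0.020 ± 0.093 (SE) on TPM (limma adjusted p = 0.855), and after rescaling Eef1a2 fell by 0.38 (limma adjusted p = 0.00364). At 2, 4 and 6 weeks it was not called by limma under either scaling, with TPM differences of 0.020, -0.024 and 0.22.

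The ratio of Eef1a1 to Eef1a2 within each library followed from both. In Con it was 0.199 to 0.282 at 2 weeks, 0.17 to 0.27 at 4, 0.21 to 0.428 at 6 and 0.194 to 0.307 at 8 weeks. In CAC it was 0.232 to 0.439, 0.289 to 0.45, 0.395 to 0.482 and 0.313 to 1.01 at the same weeks, so the groups were apart at 4 and at 8 weeks. In the CAC library with the highest ratio at 8 weeks, replicate 4, the TPM of the paralogues was nearly equal, at 1101 for Eef1a1 and 1090 for Eef1a2. The log2 difference was 0.62 at 4 weeks and 1.11 at 8 weeks (exact permutation, adjusted p = 0.0357 for each) and 0.64 at 6 weeks (adjusted p = 0.0536). Against NCAC it was 0.82 at 6 weeks and 1.23 at 8 weeks (exact permutation, adjusted p = 0.0357). With 1 library left out, the call against Con was lost without any 1 of the 5 CAC libraries at 4 weeks, and without Con replicate 3 or 4 at 8 weeks. The call against NCAC was lost in 5 of 10 refits at 6 weeks and 0 of 12 at 8 weeks, by exact permutation. All macrophage markers and some markers of the other cells given above were also higher in CAC at 8 weeks, and their part in this ratio was not tested. As a difference of medians, none of the 8 ratio calls among the 36 tests held (exact permutation, adjusted p = 0.107). Many arrangements of the libraries share the same medians, so that version cannot give p-values as small as the test of means. No conclusion is drawn from its loss of calls. With 5 libraries a group the smallest p the test of means can give is 0.00794, and 0.00126 with 7 against 5.

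**Figure D3:**
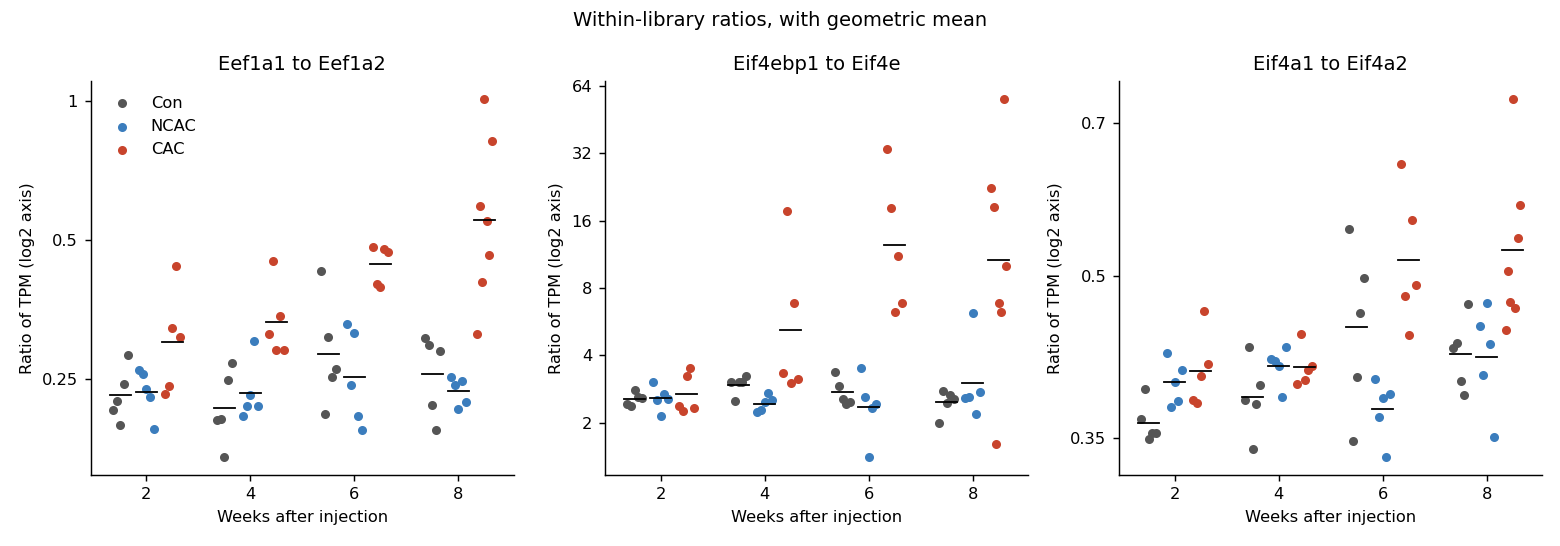
Ratio of TPM within each library (points) for 3 pairs of members, by week, on log2 axes, with the geometric mean of each group as a bar. The Eef1a1 to Eef1a2 ratio of CAC lies wholly above Con at 4 and 8 weeks, and the Eif4ebp1 to Eif4e ratio reaches 56.0 in CAC at 8 weeks.

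Eef2, the translocase, was at 1110, 1370, 1539, 1507 and 969.5 TPM in CAC at 2 weeks, 1332, 2480, 1666, 1655 and 1447 at 4 weeks, and 2123, 2404, 2194, 2369 and 1957 at 6 weeks. Con libraries lay between 896 and 1187 TPM over the 4 weeks, below every CAC library at 4 and 6 weeks. At 8 weeks CAC ran from 1011, in replicate 3, through 1885 to 2858 TPM. Eef2 rose by 0.62, 1.05 and 0.89 at 4, 6 and 8 weeks (limma adjusted p = 0.00337, 9.1e-07 and 7.77e-07) and by 0.42, 0.73 and 0.49 rescaled. The rescaled 4-week call was lost in 7 of 10 refits with 1 library left out, with 0.34 and a limma adjusted p of 0.177 without CAC replicate 2. Its kinase gene Eef2k, whose product blocks eEF2, rose by 0.58 at 6 weeks and 0.46 at 8 weeks on TPM and was not called after rescaling (0.27 and 0.083). Eef2kmt, which methylates eEF2, was at 7.45 to 12.8 TPM in CAC and 5.65 to 6.78 in Con at 8 weeks and rose by 0.58, or 0.22 rescaled (limma adjusted p = 0.0128).

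The subunits of the eEF1B exchange complex did not move alike. Eef1b2 rose by 0.65 at 8 weeks (0.26 rescaled, limma adjusted p = 0.00466). Eef1d, the delta subunit, was the middle of the 7 elongation factors. It rose by 0.35 on TPM and was at -0.039 rescaled, where it was not called. Eef1g differed by 0.13 on TPM (limma adjusted p = 0.0653) and fell by 0.27 after rescaling (adjusted p = 0.00064), with 44.2% of its 50-base windows shared with other transcripts. Eef1e1, a protein of the aminoacyl-tRNA synthetase complex, was the only member below 0 at 8 weeks on TPM, at -0.088 (limma adjusted p = 0.658), and fell by 0.47 rescaled, a call lost in 3 of 12 refits with 1 library left out. Eif5a, which helps ribosomes through difficult stretches such as runs of proline, was at 316 to 395 TPM in CAC and 310 to 351 in Con at 8 weeks. It differed by 0.11 (limma adjusted p = 0.144) and fell by 0.28 rescaled (adjusted p = 0.00147). Eif6, which keeps ribosomal subunits apart, rose by 0.45 on TPM and was at 0.072 rescaled.

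**Figure D4:**
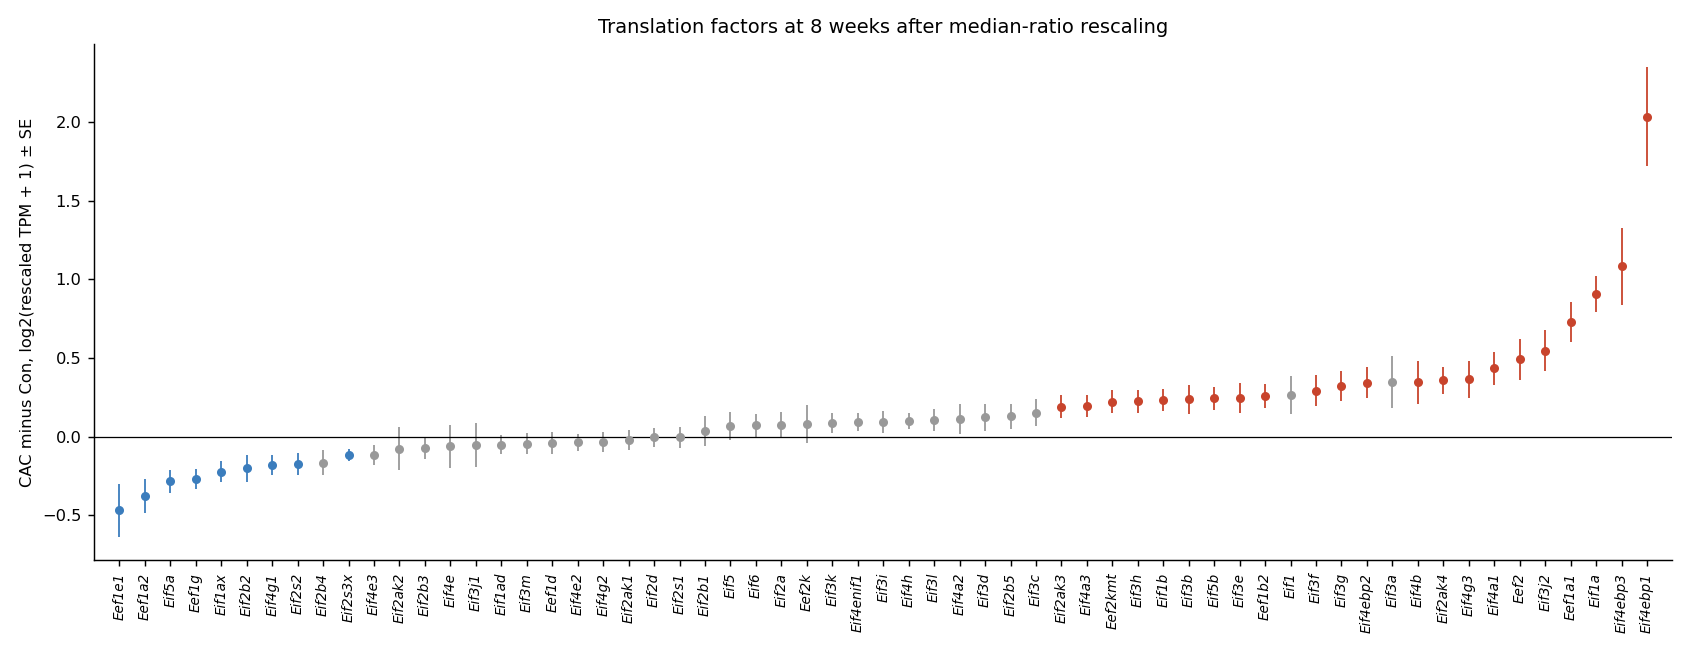
Difference between CAC and Con at 8 weeks in mean log2(rescaled TPM + 1), with its SE, for the 61 tested members in order; red points rose, blue points fell (adjusted p under 0.05, limma) and grey points were not called. Eif4ebp1 stands at 2.03 and Eef1e1 at -0.47, with 22 members higher and 9 lower.

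Whether the difference from Con itself changed between weeks was tested with limma's moderated F test. It called 8 of 61 members, Eif1b, Eef1b2, Eif4ebp1, Eif3g, Eif4h, Eif3h, Eif4ebp3 and Eif2ak4, against 12.1% of all genes. After rescaling it called 0 of 61 by limma, with 8 at an unadjusted p under 0.05, against 3.97% of all genes. Without CAC replicate 2 at 4 weeks, or without CAC replicate 3 at 8 weeks, the count on TPM was 28.

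CAC was next set against NCAC, where both groups carried melanoma cells; these comparisons share the CAC libraries with those above. At 2 weeks 1 member rose, Eif3j1 (0.57, limma adjusted p = 0.0456), with 1.16% of genes higher and 0.0162% lower. After rescaling 0 members were called by limma, 3 having an unadjusted p under 0.05, against 0.364% of genes higher and 0.0809% lower. At 4 weeks 32 rose and 0 fell (background 18.1% and 1.59%), or 7 and 0 rescaled (3.22% and 5.01%), and without CAC replicate 2 the counts were 3 on TPM and 1 rescaled, Eif1a. Without CAC replicate 4 or NCAC replicate 5 the rescaled count was 4. At 6 weeks 58 rose and 0 fell (64.1% and 4.64%), or 25 and 2 rescaled (21.6% and 20.2%). The 3 not called on TPM at 6 weeks were Eif4e, Eef1e1 and Eif2ak2. At 8 weeks 55 rose and 0 fell (67.5% and 4.8%), or 15 and 8 rescaled (25.1% and 20.6%). The rescaled count of higher members at 8 weeks was 23 without CAC replicate 3 and 22 without NCAC replicate 3.

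The same leading members stood out against NCAC at 8 weeks. Eif4ebp1, at 71.1 to 160 TPM in NCAC, was higher in CAC by 2.24 on the log2(TPM + 1) scale (1.83 rescaled), Eif1a by 1.29 (0.91 rescaled), Eif4ebp3 by 1.24 (1.01 rescaled) and Eef1a1 by 1.19 (0.78 rescaled), all called by limma under both scalings. Eef1a2 differed by -0.032 on TPM (limma adjusted p = 0.762) and fell by 0.44 rescaled (adjusted p = 0.000708). Eif4g1 rose by 0.21 on TPM and fell by 0.20 rescaled, a call lost without CAC replicate 4.

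Between NCAC and Con, limma called 0 of 61 members at each of the 4 weeks, and the background was 0% of all genes at each. At an unadjusted p under 0.05 there were 0, 0, 3 and 0 members at 2, 4, 6 and 8 weeks. The members' median difference was -0.028, -0.018, -0.12 and 0.0090, beside -0.040, -0.0044, -0.097 and -0.017 over all genes. No within-library ratio was called between NCAC and Con; the lowest adjusted p, 0.0536, was for Eif4ebp1 to Eif4e at 4 weeks (-0.28) and Eif4a1 to Eif4a2 at 2 weeks (0.13), by exact permutation.

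Genes around these factors were read from lists outside the rule, beside 65.3% of all genes higher and 5.55% lower at 8 weeks on TPM, and 24.9% and 21% rescaled. Of 17 mTORC1 pathway genes, 11 rose and 0 fell in CAC against Con at 8 weeks on TPM, and 5 rose and 3 fell rescaled. Ddit4, the stress-induced inhibitor REDD1 that acts upstream of mTORC1, was at 234 ± 185 TPM (SD, n = 7) in CAC and 8.15 ± 3.11 (SD, n = 5) in Con, a rise of 4.19, or 3.81 rescaled (limma adjusted p = 1.08e-05). Mtor itself rose by 0.67 (0.30 rescaled). Of 12 tested genes of the integrated stress response, which runs through eIF2 alpha, 8 rose and 0 fell, and 5 rose and 0 fell rescaled; Atf4 rose by 0.63 on TPM and was at 0.23 rescaled, not called (limma adjusted p = 0.155). Among 10 partners of the cap and poly(A) complex 9 rose on TPM, and 2 rose and 2 fell rescaled. The largest was Mknk2, an eIF4E kinase, at 488 ± 297 TPM (SD, n = 7) in CAC and 130 ± 8.54 (SD, n = 5) in Con, a rise of 1.69 (1.29 rescaled). Of 9 termination, recycling and hypusine genes 6 rose on TPM, and 1 rose and 4 fell rescaled.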

How the data were processed

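The authors deposited 1 table of TPM per gene symbol for 62 libraries of mouse gastrocnemius; the build is mm10, per the submitters' processing notes, and the sources used here give no aligner or quantifier. Groups followed each library's description, which matches its title; the treatment tag, which reads the same in all groups, was set aside. Genes with at least 1 TPM in at least 5 libraries were tested with limma 3.58.1 (R 4.3.3) on log2(TPM + 1), in 1 fit of 12 groups with a variance trend, with Benjamini-Hochberg adjustment over 12364 genes and a threshold of 0.05. SEs are limma's. The same fit was run on TPM rescaled by median ratios over genes of at least 1 TPM in all libraries, and was tested on simulated data. Ratios of 3 pairs of members within a library were compared by exact permutation (36 tests). The labels call the libraries biological replicates, and p-values measure the spread between them.

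Members and lists were chosen with earlier results of these data known. Named members were 12 preset ones, the 4 largest rises and falls among called members (all libraries of a group on 1 side of the other mean) in CAC against Con at each week and in CAC against NCAC at 8 weeks, and the member of lowest p in each role; any other member named was chosen after its values were seen. Values of TPM carry no counts. From exon lengths of the GENCODE vM21 models, 78% to 79.6% of low values per library came out as whole reads within a tolerance of 0.02, for an estimated depth of 40.3 to 49.1 M reads, too rough a fit for a count test. Shared sequence was measured as the share of a gene's distinct 50-base windows found in transcripts of other genes in GENCODE vM21. Promoter windows are RefSeq's, and where a gene had several the entry listed earliest was used. Replicate numbers were checked for pairing: in no comparison did all 5 pairs correlate above 0.1, so no block was used in the main fit. In CAC against Con and CAC against NCAC at 4 weeks, 3 of 5 pairs did. No 2 libraries were identical. Alternatives were the pseudocount, the filters, the scaling, leaving out mitochondrial genes, array weights, fits of 2 groups, a replicate block and each library left out.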

Additional observations from a re-analysis of the deposited data

Results flagged for a closer look

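Of 144 tests of single libraries within a group (12 members in 12 groups), 16 found a library far from the others, and chance flags about 1 in 20 such tests. CAC replicate 2 at 4 weeks was high for 4 members: Eef1a1 at 719 TPM against 394 to 445 in the rest, Eif4ebp1 at 613 against 129 to 258, Eif3f at 176 against 106 to 123, and Eif2b5 at 65.0 against 41.8 to 47.5. NCAC replicate 3 at 8 weeks was high for 3: Eef2 at 1513 TPM against 923 to 1058, Eif4ebp1 at 160 against 71.1 to 81.7, and Eif3f at 129 against 86.6 to 94.0. CAC replicate 1 at 6 weeks was high for Eif5a, at 477 TPM against 298 to 343, and for Eif2b5, at 93.6 against 49.9 to 62.5.

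The remaining 7 were single libraries in different groups. Eef1a1 was at 385 TPM in Con replicate 5 at 2 weeks and at 558 in Con replicate 1 at 6 weeks. Eif4e was at 31.5 TPM in Con replicate 5 at 4 weeks. Eif2ak2 was at 3.48 TPM in CAC replicate 4 at 2 weeks. Lower than their groups were Eif3f at 70.3 TPM in NCAC replicate 3 at 6 weeks, Eif5a at 270 in NCAC replicate 2 at 2 weeks and Eif2b5 at 35.6 in Con replicate 4 at 2 weeks.

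The difference between CAC and Con changed between weeks for 8 members by limma's F test, with adjusted p of 0.00633 for Eif1b, 0.0078 for Eef1b2, 0.0194 for Eif4ebp1, 0.023 for Eif3g, 0.0253 for Eif4h, 0.0335 for Eif3h, 0.035 for Eif4ebp3 and 0.0397 for Eif2ak4. These 8 were among 61 members tested, and the same test called 12.1% of all genes on TPM. None of the 8 was called after rescaling, where 3.97% of all genes were. The list is therefore not read as a result particular to the members.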

How the results depend on the processing

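Against Con at 2, 4, 6 and 8 weeks, 1, 8, 19 and 31 members were called after median-ratio scaling (0, 28, 55 and 55 on TPM), and 0, 7, 27 and 23 against NCAC (1, 32, 58 and 55 on TPM); across weeks the count was 0. The counts in this section are given without the share of all genes called under each setting. They show how the calls depend on the processing and are not read as results about the members. Array weights gave 8 members at 2 weeks against Con, 9 against NCAC and 38 across weeks. Leaving out mitochondrial genes gave 15 against Con at 4 weeks, 0 and 10 against NCAC at 2 and 4 weeks and 3 across weeks. A fit of the 2 groups only, which has fewer libraries and takes its variance from those 2 groups alone, gave 10 against Con at 4 weeks. It gave 2 and 8 against NCAC at 2 and 4 weeks. With no filter, 0 and 19 were called against NCAC at 2 and 4 weeks and 5 across weeks. Rescaling with a fit of 2 groups, an alternative added after seeing the data, gave 2, 9 and 16 against Con at 4, 6 and 8 weeks, and 0, 3, 15 and 9 against NCAC at 2 to 8 weeks. The cause of these differences was not tested.

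With a replicate block, 4 and 35 members were called against Con at 4 and 8 weeks, 0, 2 and 27 against NCAC at 2, 4 and 8 weeks, and 4 across weeks. Correlations of same-numbered libraries ran from -0.30 to 0.29. At 4 weeks 3 of 5 pairs lay above 0.1 for CAC against Con, and 3 of 5 for CAC against NCAC. The check does not settle whether same-numbered libraries shared a batch. Leaving out each library in turn gave 7 to 34 against Con at 4 weeks and 3 to 38 against NCAC, both lowest without CAC replicate 2; the latter was 16, 13 and 18 without NCAC replicates 1, 3 and 4. It gave 0 to 2 against NCAC at 2 weeks and 4 to 28 across weeks. After rescaling, an alternative added after seeing the data, leaving out each library gave 0 to 1, 1 to 10, 9 to 23 and 18 to 24 members higher against Con at 2, 4, 6 and 8 weeks, and 0, 1 to 8, 17 to 29 and 12 to 23 against NCAC. The counts lower were 0, 0 to 1, 0 to 2 and 6 to 9 against either group.

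Of 100 changes of named members, 20 took the opposite sign after median-ratio scaling, with or without a fit of 2 groups. Against Con at 2 weeks these were Eif2ak4 (-0.0086), Eif6 (-0.037), Eef1a2 (-0.070) and Eif4h (-0.045). At 4 weeks they were Eif6 (-0.0063), Eif4h (-0.047), Eif5a (-0.18) and Eif4ebp3 (-0.022). At 6 weeks they were Eef1a2 (-0.097), Eif4e (-0.14), Eif5a (-0.17), Eif4g1 (-0.036) and Eif2ak2 (-0.12). At 8 weeks they were Eef1a2 (-0.38), Eif4e (-0.060), Eif5a (-0.28), Eif4g1 (-0.18) and Eif2ak2 (-0.075), and against NCAC Eif5a (-0.31) and Eif4g1 (-0.20). Without mitochondrial genes Eef1a2 was at -0.012 and -0.17 at 2 and 8 weeks, Eif5a at -0.081, -0.021 and -0.077 at 4, 6 and 8 weeks and -0.061 against NCAC at 8 weeks, and Eif2ak2 at -0.018 at 6 weeks. Eif4ebp3 was at -0.0079 and -0.14 at 2 and 4 weeks with array weights, and at -0.039 at 4 weeks with a pseudocount of 0.1. With 1 library left out, Eef1a2 ran from -0.017 to 0.065 at 2 weeks, -0.081 to 0.017 at 4, -0.033 to 0.081 at 8 and -0.086 to 0.028 against NCAC at 8. Eif4ebp3 ran from -0.11 to 0.18 at 2 weeks and -0.078 to 0.20 at 4, and Eif5a from -0.010 to 0.040 at 4.

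As a difference of medians, none of the 8 ratio calls held (exact permutation, adjusted p = 0.107). Many arrangements share the same medians, so this version has a higher smallest p than the test of means, and its loss of calls decides nothing. For Eef1a1 to Eef1a2 the values were 0.61 and 0.93 against Con at 4 and 8 weeks and 0.95 and 1.18 against NCAC at 6 and 8 weeks. For Eif4ebp1 to Eif4e they were 2.13 against Con at 6 weeks and 0.42 and 2.20 against NCAC at 4 and 6 weeks, and for Eif4a1 to Eif4a2 0.36 against NCAC at 6 weeks. At 2 weeks Eif4ebp1 to Eif4e changed sign to -0.12 (CAC against Con), -0.099 (CAC against NCAC) and -0.021 (NCAC against Con), and Eif4a1 to Eif4a2 to 0.014 (NCAC against Con, 8 weeks).

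With 1 library left out, the Eef1a1 to Eef1a2 call was lost in 5 of 10 refits against Con at 4 weeks (exact permutation, highest adjusted p = 0.0571), 2 of 12 at 8 weeks (0.0545), and 5 of 10 against NCAC at 6 weeks (0.0571). The Eif4ebp1 to Eif4e call was lost in 4 of 10 against Con at 6 weeks (0.0536), 5 of 10 against NCAC at 4 weeks (0.118) and 1 of 10 at 6 weeks (0.0536), and the Eif4a1 to Eif4a2 call in 5 of 10 against NCAC at 6 weeks (0.0536). The values of Eef1a1 to Eef1a2 ran from 0.51 to 0.70, 0.54 to 0.79 and 0.96 to 1.24 against Con at 4, 6 and 8 weeks, from 0.40 to 0.60 and 0.72 to 0.91 against NCAC at 4 and 6 weeks, and from -0.033 to 0.093 for NCAC against Con at 2 weeks. Eif4ebp1 to Eif4e ran from -0.021 to 0.14, 0.37 to 1.01, 1.82 to 2.43 and 1.71 to 2.57 against Con at 2, 4, 6 and 8 weeks, and from -0.029 to 0.13, 0.65 to 1.29, 2.04 to 2.64 and 1.43 to 2.28 against NCAC at 2, 4, 6 and 8 weeks. For NCAC against Con it ran from -0.051 to 0.074 at 2 weeks and -0.34 to -0.25 at 4. Eif4a1 to Eif4a2 ran from 0.054 to 0.13 and 0.25 to 0.37 against Con at 4 and 8 weeks, from -0.012 to 0.061, -0.029 to 0.013, 0.40 to 0.53 and 0.26 to 0.38 against NCAC at 2, 4, 6 and 8 weeks, and from 0.056 to 0.14, -0.35 to -0.18 and -0.052 to 0.055 for NCAC against Con at 4, 6 and 8 weeks. TPM keeps no counts, so no counting interval could be given.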
